A study of Mus musculus with 12 samples.

Results

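The 75 genes described here encode subunits of complexes I to IV of the mitochondrial respiratory chain, measured by RNA sequencing of mouse quadriceps femoris, a thigh muscle. They were chosen by symbol from the 49315 genes counted. The 64 nuclear members are the genes named Ndufa, Ndufb, Ndufc, Ndufs or Ndufv with a number, Sdha to Sdhd, the Uqcr genes, Cyc1, and the Cox4i1, Cox5a, Cox5b, Cox6, Cox7 and Cox8 genes, with a mean CPM (counts scaled to a common library total) of at least 1 over 12 libraries and without pseudogenes and assembly factors. The 11 mitochondrial members are the mt-Nd, mt-Cytb and mt-Co genes. By complex, the nuclear members were 35 for complex I, 4 for complex II, 9 for complex III and 16 for complex IV, with Ndufa4 and Ndufa4l2 counted in complex IV. The mitochondrial members were 7 for complex I, 1 for complex III and 3 for complex IV. Of 84 nuclear and mitochondrial candidates by symbol, 9 were left out as pseudogenes or for low counts: just inside the minimum lay Ndufa4l2 with a mean of 4.11 CPM, and just outside it Cox6b2 with 0.34 CPM. All 75 members passed the filter on low counts that the tests used.

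The libraries came from C57BL/6 mice in 4 groups of 3: sedentary and exercised mice of 18 weeks (young), and sedentary and exercised mice of 28 months (old). Exercised mice ran on a treadmill in 3 weekly sessions of 40 minutes for 8 weeks, with the speed raised from 8 to 12 m/min, and sedentary mice had no scheduled running. The labels name no genetic change in any group, give no sex, and do not say whether each library came from its own animal. The p-values therefore refer to the spread among the libraries at hand, which may in part be technical. Xist levels mark 2 of 3 young sedentary, 2 of 3 young exercised, 0 of 3 old sedentary and 1 of 3 old exercised libraries as female. Groups that hold both sexes therefore came from more than 1 animal.

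Complex I takes electrons from NADH and complex II takes them from succinate. Both pass them to ubiquinone, complex III hands them on to cytochrome c, and complex IV passes them to oxygen. Complexes I, III and IV pump protons and hold subunits from both genomes, whereas every complex II subunit is nuclear. Slow and fast oxidative muscle fibres are known to hold more mitochondria than fast glycolytic fibres, and endurance training is known for raising mitochondrial content in muscle.

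The mitochondrial genes first need their sequences, because 4 of the 11 are nearly identical to other genes and had almost no counts. Each gene was cut into all its 50-base windows, and a window was counted as shared where another annotated gene held it unchanged. The catalytic subunit gene mt-Co1 had between 678416 and 1049020 counts per library, but the other core subunits of complex IV, mt-Co2 and mt-Co3, had 101 to 184 and 156 to 234. For mt-Co2, 100% of windows were found elsewhere, in Gm28661 at chr1:24614885-24615565 (GRCm38) and in Gm13341. For mt-Co3 the share was 99.9%, with its copy Gm28437 at chr1:24613189-24613971. For mt-Nd4l it was 98.8%, with 79 to 127 counts per library, and for mt-Nd3 98.0%, with 686 to 1190 counts. mt-Nd4 and mt-Co1 shared 62.2% and 51.1% of windows, mt-Nd2 and mt-Nd5 8.19% and 7.61%, and mt-Nd1, mt-Nd6 and mt-Cytb none. The plot of level against shared windows sets these side by side.

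**Figure D1:**
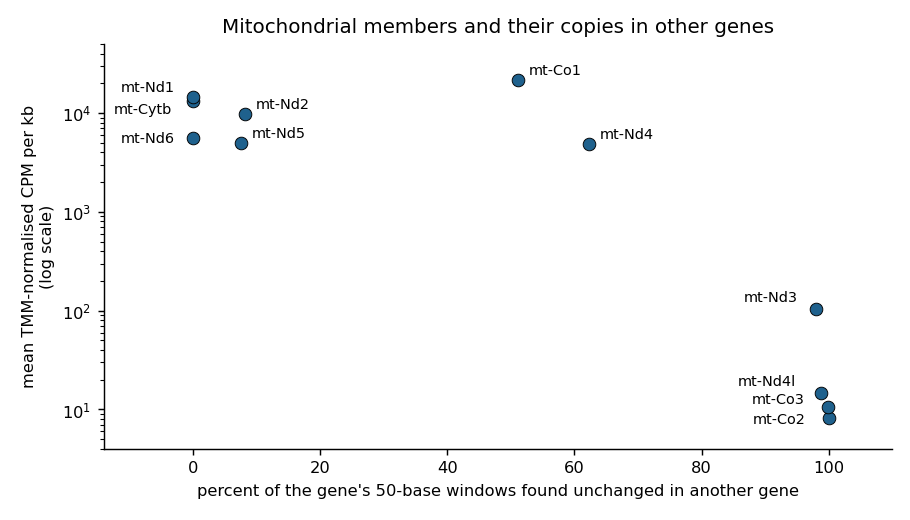
Mean level of the 11 mitochondrial members over the 12 libraries, in normalised CPM per kb on a log scale (vertical), against the percent of a gene's 50-base windows found unchanged in another annotated gene (horizontal). The 4 genes with at least 98.0% of windows shared lie between 8.13 and 104 normalised CPM per kb, and the other 7 lie at 4808 or above.

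The first 60 bases of mt-Co2 (MT:7013-7072, plus strand, GRCm38) and of its copy are shown because no base tells them apart; the copy was identical over 681 aligned bases of the 684-base gene.
mt-Co2: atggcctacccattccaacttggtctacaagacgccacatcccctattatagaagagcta
Gm28661: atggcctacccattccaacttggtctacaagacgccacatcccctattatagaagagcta
For mt-Nd3, a 40-base stretch (MT:9459-9498, plus strand) holds the single difference from Gm28438 in 345 aligned bases, in capitals.
mt-Nd3: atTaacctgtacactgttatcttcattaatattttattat
Gm28438: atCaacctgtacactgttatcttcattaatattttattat
The first 60 bases of mt-Co1 (MT:5328-5387, plus strand) differ from the pseudogene Gm13340 at 2 bases, in capitals, and the full genes differ at 37 of 1545.
mt-Co1: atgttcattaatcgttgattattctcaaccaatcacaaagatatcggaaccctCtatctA
Gm13340: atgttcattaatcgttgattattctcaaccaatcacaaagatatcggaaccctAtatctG

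The copies themselves had few counts: Gm28661 had 159 to 286 per library and Gm28437 had 99 to 214. The sources used here do not state how reads with several alignments were handled. The levels of mt-Co2, mt-Co3, mt-Nd3 and mt-Nd4l are therefore uncertain, and sums over the 11 mitochondrial members are made up almost wholly of the other 7. Those 7 each had over 1000 counts in every library. mt-Nd6 lies on the strand opposite to the other mitochondrial members, and whether counting used strand is not given either. Among the 64 nuclear members, 34 had at least 1 shared window, 45 had under 10% shared, and none had over 50%. The highest share was 43.4%, for Uqcrb, a small complex III subunit.

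The nuclear members lie on 18 chromosomes, and their promoters were searched for 4 motifs of factors known to bind nuclear genes of the respiratory chain. RefSeq promoters (GRCm38.p6, from 250 bases before to 50 after the gene start) were found for 51 of the 64. Both strands were searched. The NRF1 motif, in which the fifth base is free, was present in 11 of the 51 (21.6%), against 5.19% of 27025 promoters of all genes. The YY1 motif AAGATGGC was present in 7 (13.7%) against 3.19%, the ETS motif CCGGAAGT in 4 (7.84%) against 4.31%, and the ERR motif AAGGTCA in 4 (7.84%) against 5.38%. These are matches of letters in a window and not measured binding. Stretches of 30 bases upstream of the start are shown for the NRF1 matches of a complex I member, of the flavoprotein and an anchor subunit of complex II and of the complex IV isoform Cox6a1, whose levels are described later; capitals mark the motif.
Ndufs5, chr4:123718265-123718294, minus strand: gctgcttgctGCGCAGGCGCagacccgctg
Sdha, chr13:74350276-74350305, minus strand: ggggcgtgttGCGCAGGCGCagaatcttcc
Sdhd, chr9:50603909-50603938, minus strand: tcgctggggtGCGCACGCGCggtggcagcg
Cox6a1, chr5:115349101-115349130, minus strand: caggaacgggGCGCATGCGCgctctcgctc

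Total counts ran from 23271406 to 27632520 per library, of which chromosome MT took 7.88% to 10.7% and the nuclear members 1.22% to 1.65%. Fast glycolytic fibre markers were abundant in all 12 libraries, with a summed level of 117445 to 188676 normalised CPM (CPM after TMM scaling of the library totals). Of the 12 libraries, 3 carried signals of other tissues. Young sedentary replicate 1 and old exercised replicate 6 had adipocyte marker sums of 1314 and 1063 against at most 238 elsewhere, and young sedentary replicate 2 had a keratinocyte sum of 383 against at most 3.34 elsewhere. Several results that rest on these libraries are given with and without them. Leaving out all 3 keeps only replicate 3 of the young sedentary group, which is then assumed to vary like the other groups. Erythroid sums ran from 430 to 1193 in old exercised libraries and from 78.0 to 497 in the others, and neuronal sums from 14.2 to 18.2 against at most 6.21. Their part in the results was not tested.

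Per kb of gene length, the median nuclear member of complex I stood at 112 normalised CPM, of complex II at 164, of complex III at 230 and of complex IV at 182. The most abundant in complex I was Ndufb9 (485), in complex II the succinate-oxidising flavoprotein gene Sdha (229), in complex III Uqcr10 (301) and in complex IV the muscle isoform Cox6a2 (802). The least abundant were Ndufb2 (15.7), Sdhc (78.3), Uqcrq (129) and Ndufa4l2 (4.27). Gene length is the length given with the counts, and these ranks and medians depend on it. For Uqcrb it was 876 bases and for Sdha 3883, where the transcripts used for the windows had 535 and 2900. Leaving aside mt-Co2, mt-Co3, mt-Nd3 and mt-Nd4l, whose levels are uncertain, mt-Co1 had the highest level of either genome, at 21553 normalised CPM per kb.

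The nuclear members varied together from library to library. Their mean pairwise Pearson r over the 12 libraries, on the log2 scale, was 0.54, against 0.00066 over all 15304 genes tested. It was 0.79 within complex II and 0.79 within complex III, 0.51 within complex I and 0.44 within complex IV. Among the 7 mitochondrial members with over 1000 counts in every library it was 0.89, and between the nuclear and these 7 mitochondrial members it was 0.46. These correlations are descriptions over 12 libraries that share their scaling. The members least like the others were the complex IV genes Ndufa4l2, Cox8a and Cox6a1 and the complex I genes Ndufc1 and Ndufb4, with r between 0.0081 and 0.17 against the median of the other nuclear members.

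Single libraries held the extreme levels of many nuclear members, and their part in the correlations above was not tested. Young sedentary replicate 3 held the highest level of 43 of the 64 nuclear members and stood above the gene's own mean in 63 of 64, whereas young sedentary replicate 2, which has the keratinocyte signal, held the lowest level of 23. The summed nuclear level in the young sedentary libraries was 13574, 12343 and 15758 normalised CPM. It was 13987, 12705 and 12630 after exercise. In old mice it was 13008, 14303 and 14010 in the sedentary and 13771, 14625 and 14819 in the exercised group. As mean ± SD (n = 3) in that order of groups, it was 13892 ± 1729, 13107 ± 763, 13774 ± 679 and 14405 ± 558, and no 2 of the groups compared were apart.

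Fibre type markers differed between the same libraries. Myh7, the slow myosin heavy chain, stood at 246, 1.09 and 635 normalised CPM in sedentary and at 1.84, 16.4 and 5.88 in exercised young mice. In old mice it stood at 0.89, 407 and 31.2 in the sedentary and at 116, 136 and 46.9 in the exercised group. The summed level of 8 slow fibre markers was highest, at 2017, in young sedentary replicate 3, which also had the highest summed nuclear level. Their part in the results was not tested, and in bulk muscle a change in the share of a fibre type cannot be told apart from a change of RNA within fibres.

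**Figure D2:**
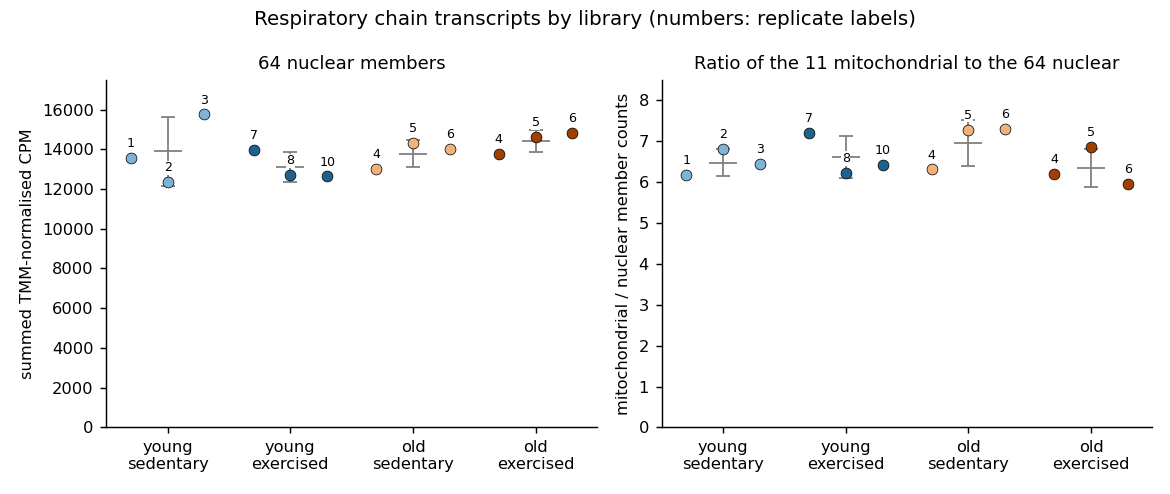
Summed level of the 64 nuclear members in normalised CPM (left) and the ratio of mitochondrial to nuclear member counts (right) for each library by group. Points are libraries with their replicate labels, and the bar and whiskers are mean and SD (n = 3); young sedentary libraries range from 12343 to 15758, and the groups overlap in both panels.

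**Figure D3:**
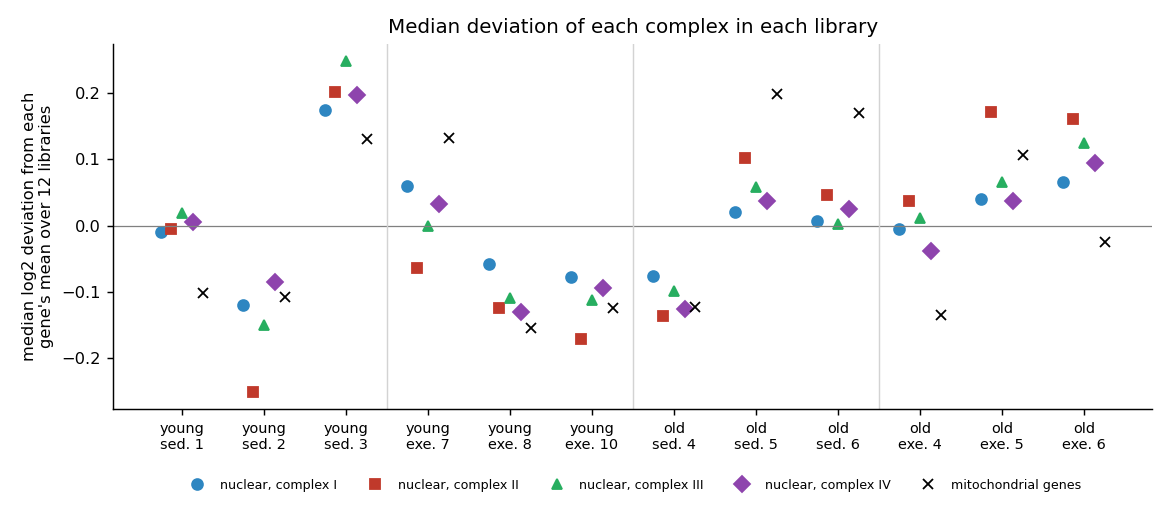
Median log2 deviation of each complex's members from each gene's own mean over 12 libraries (vertical), by library (horizontal), for the nuclear members of complexes I to IV and for the mitochondrial members. Complex II runs from -0.25 in young sedentary replicate 2 to 0.20 in young sedentary replicate 3, and the other nuclear complexes follow the same sign in these libraries.

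Exercise in young mice changed no member past the threshold. The number of members with an adjusted p under 0.05 (Benjamini-Hochberg over 15304 genes, from the quasi-likelihood test of edgeR) was 0 of 75, where 0.0131% of all genes passed, and the smallest edgeR adjusted p of a member was 0.258. At an unadjusted p under 0.05, 0 members were higher and 2 lower (5.7% and 7.34% of all genes), and DESeq2 and limma also called 0. The median log2 fold change was -0.08 over the nuclear and -0.02 over the mitochondrial members, against -0.01 over all genes. By complex, the nuclear medians were -0.05 for I, -0.11 for II, -0.11 for III and -0.11 for IV, and 11 of 64 nuclear members had a positive value, against 48.5% of all genes. Without young sedentary replicate 3 the nuclear median was 0.01 and 46 of the 75 members had a positive value. Without young sedentary replicate 2, which has the keratinocyte signal, the nuclear median was -0.16. The sign and size of this median thus depend on which young sedentary library is left out. It was -0.23 without the 3 libraries with signals of other tissues, a value that rests on replicate 3 as the single young sedentary library. Between the groups, 0 members did not overlap upward (9.53% of all genes did) and 3 downward (8.72% of all genes): Cox6a1, Cox8a and the uncertain mt-Nd4l.

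The broadly expressed isoforms Cox6a1 and Cox8a had the largest fold changes of any member in this comparison. Both have a muscle counterpart, Cox6a2 and Cox8b, that carries most of the counts in this tissue. Cox6a1 stood at 38.2, 18.1 and 16.4 normalised CPM in the young sedentary libraries and at 11.6, 13.8 and 12.4 in the young exercised. The groups do not overlap, and young sedentary replicate 1, with the adipocyte signal, is far above the other libraries. Its log2 fold change was -0.94 ± 0.29 (SE, edgeR adjusted p = 0.258), and -0.46 without that library (edgeR adjusted p = 0.367). Cox8a, at 39.3, 24.1 and 19.5 against 15.8, 17.5 and 16.6, gave -0.73 ± 0.24 (edgeR adjusted p = 0.28), and -0.39 without the same library (edgeR adjusted p = 0.508).

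Ndufb3, an accessory subunit of complex I, and Uqcrq, a small subunit of complex III, came next by p. Ndufb3 gave -0.22 ± 0.11 (edgeR adjusted p = 0.42) and Uqcrq -0.22 ± 0.12 (edgeR adjusted p = 0.461), with overlapping groups for both. Of the core subunits, Sdhb, an iron-sulfur subunit of complex II, had the value farthest from 0, at -0.27 ± 0.17.

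Exercise in old mice also left 0 of 75 members past the threshold, against 0.582% of all genes, and 0 had an unadjusted p under 0.05, higher or lower (4.73% and 3.86% of all genes). DESeq2 and limma called 0 as well, and the smallest edgeR adjusted p was 0.633. The nuclear median was 0.06, with 51 of 64 members positive against 51.6% of all genes, and the mitochondrial median was -0.10, with 1 of 11 positive. That mitochondrial median was -0.05 without old sedentary replicate 5 and -0.19 without old sedentary replicate 4. By complex the nuclear medians were 0.05 for I, 0.10 for II, 0.09 for III, where all 9 members were positive, and 0.05 for IV. Groups did not overlap upward for 6 members (8.16% of all genes) and downward for 2 (7.36% of all genes). The 6 were Sdhd, Cox6a1, Cox7b, Ndufb10, Ndufa6 and Ndufs6, and the 2 were Ndufb2 and the uncertain mt-Co2.

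Sdhd, an anchor subunit of complex II, was the member with the smallest p. It stood at 180, 215 and 208 normalised CPM in old sedentary libraries and at 235, 231 and 232 in old exercised libraries, so the groups are apart with a narrow spread after exercise. The fitted log2 value was 0.21 ± 0.11 (edgeR adjusted p = 0.633). Cox7b, a small complex IV subunit, stood at 233, 261 and 260 and then at 280.5, 282 and 298, which gave 0.19 ± 0.11 (edgeR adjusted p = 0.682). Cox6a1 stood at 12.4, 13.8 and 14.5 and then at 17.3, 16.4 and 24.4, which gave 0.51 ± 0.28 (edgeR adjusted p = 0.670). Its highest library here, old exercised replicate 6, also has an adipocyte signal, and the value ran from 0.31 to 0.61 over 15 alternatives. mt-Co2, one of the 4 uncertain genes, gave -0.38 ± 0.21 (edgeR adjusted p = 0.667).

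The difference between both responses (old minus young) called 0 of 75 members, against 0.0523% of all genes. At an unadjusted p under 0.05, 3 members were higher and 0 lower (8.72% and 6.65% of all genes). Cox6a1 gave 1.45 ± 0.40 (edgeR adjusted p = 0.160), Cox8a 0.999 ± 0.34 (edgeR adjusted p = 0.222), Ndufb3 0.37 ± 0.15 (edgeR adjusted p = 0.282) and Uqcrq 0.36 ± 0.17 (edgeR adjusted p = 0.329). For Cox6a1, DESeq2 gave an adjusted p of 0.0211 and edgeR's likelihood ratio test 0.0374, within a range of 0.0211 to 0.358 over 20 alternatives. Without young sedentary replicate 1 the value was 0.96. Without the 3 libraries with signals of other tissues it was 0.69 for Cox6a1 and 0.23 for Cox8a, values that rest on replicate 3 as the single young sedentary library. The nuclear median was 0.13, with 57 of 64 members positive against 52.3% of all genes, and the mitochondrial median -0.10. Without young sedentary replicate 3 the nuclear median was 0.03, and without young sedentary replicate 2 it was 0.19. Without the 3 libraries with signals of other tissues the nuclear median was 0.27 and the mitochondrial median 0.07. Both of these values again rest on replicate 3 as the single young sedentary library.

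**Figure D4:**
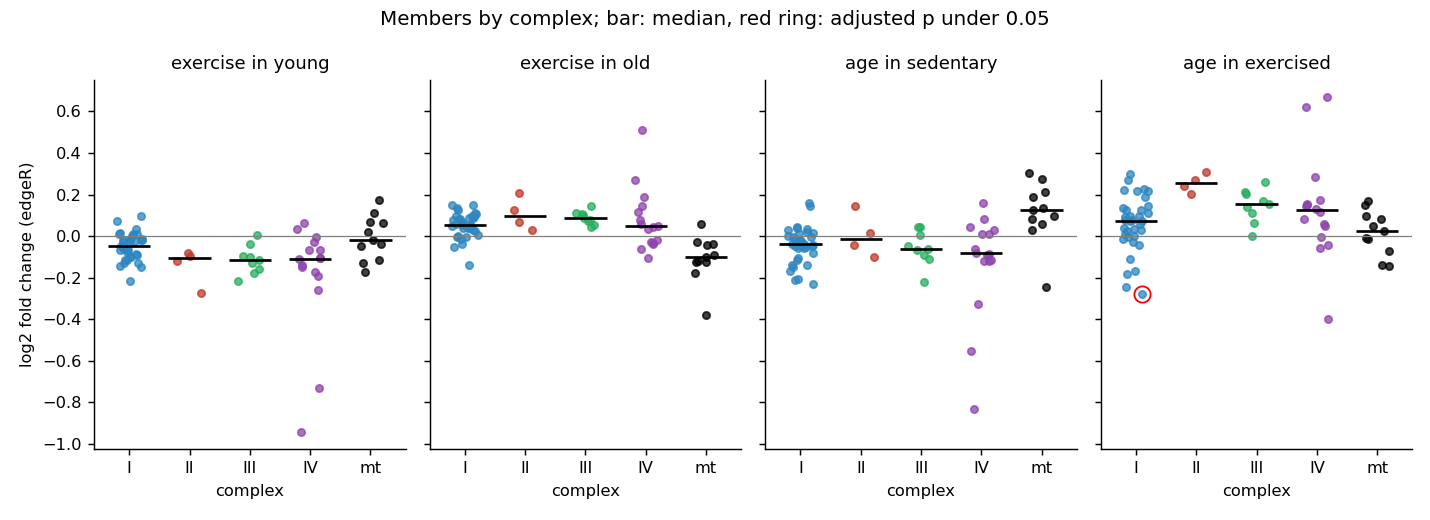
Log2 fold changes of the 75 members from edgeR (vertical) by complex for the nuclear members and together for the mitochondrial members (mt), in 4 comparisons. Points are genes, bars are medians, and the red ring marks Ndufc1 (-0.28), the 1 member with an adjusted p under 0.05; complex II has the highest median, 0.26, for age in exercised mice.

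Age in sedentary mice called 0 of 75 members, where 10% of all genes passed, and the smallest edgeR adjusted p of a member was 0.0557. At an unadjusted p under 0.05, 0 members were higher and 4 lower (11.8% and 15.6% of all genes), and limma called 0 and DESeq2 2. The nuclear median was -0.05, with 20 of 64 positive against 47% of all genes. The mitochondrial median was 0.12, with 10 of 11 positive, and the median over all genes -0.02. Without young sedentary replicate 3 the nuclear median was 0.05, and without young sedentary replicate 2 it was -0.11. The mitochondrial median was 0.05 without old sedentary replicate 5, 0.23 without old sedentary replicate 4 and 0.05 with sex as a term. Without the 3 libraries with signals of other tissues the nuclear median was -0.21 and the mitochondrial median -0.04. Both of these values rest on replicate 3 as the single young sedentary library. Groups did not overlap upward for 2 members (15.8% of all genes) and downward for 5 (16.6% of all genes). The 2 were Ndufs3 and the uncertain mt-Co3, and the 5 were Ndufc1, Ndufa1, Ndufa4l2, Cox6a1 and Ndufs5, the last of these at -0.08 ± 0.07 (edgeR adjusted p = 0.509).

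The member with the smallest p was Ndufc1, an accessory subunit in the membrane arm of complex I. It stood at 124, 116 and 131 normalised CPM in young sedentary and at 105, 103 and 108 in old sedentary libraries, without overlap. The difference was -0.23 ± 0.07 on the log2 scale (edgeR adjusted p = 0.0557). DESeq2 gave an adjusted p of 0.0157, within a range of 0.0157 to 0.177 over 14 alternatives. Leaving out young sedentary replicate 2 gave -0.28 (edgeR adjusted p = 0.0379). Ndufa1, another accessory subunit, stood at 72.0, 61.7 and 72.0 and then at 57.0, 60.7 and 60.3, which gave -0.21 ± 0.07 (edgeR adjusted p = 0.0948). Ndufa1 lies on the X chromosome, and its 2 higher young libraries are those marked female. With sex as a term the value was -0.17 (edgeR adjusted p = 0.259), and without young sedentary replicate 2 it was -0.28 (edgeR adjusted p = 0.0275).

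Ndufa4l2, the low-expressed paralog of Ndufa4, stood at 4.61, 5.08 and 5.91 normalised CPM in young sedentary and at 2.79, 4.10 and 3.75 in old sedentary libraries, which gave -0.55 ± 0.19 (edgeR adjusted p = 0.0859). Cox6a1 gave -0.83 ± 0.28 (edgeR adjusted p = 0.0894), -0.35 without young sedentary replicate 1 (edgeR adjusted p = 0.247) and -1.05 without young sedentary replicate 3 (edgeR adjusted p = 0.0458). Among the core subunits, Ndufs3 gave 0.15 ± 0.08 (edgeR adjusted p = 0.241) and Ndufs8 -0.21 ± 0.11 (edgeR adjusted p = 0.237).

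Age in exercised mice was the 1 comparison in which a member passed, where 9.87% of all genes did. Ndufc1 was lower in old mice, and no member was higher, while 5.27% of all genes passed in the lower and 4.6% in the higher direction. Ndufc1 stood at 137, 123 and 129 normalised CPM in young exercised and at 104, 107 and 111 in old exercised libraries. It fell by 0.28 ± 0.07 on the log2 scale (edgeR adjusted p = 0.0286). The call was lost in each fit that left out young exercised replicate 7, 8 or 10 or old exercised replicate 4 or 5, with edgeR adjusted p from 0.0588 to 0.111, and with plain library totals (0.0870), with no filter on low counts (0.0607) and with only these 2 groups (0.0847). The log2 fold change lay between -0.31 and -0.21 in all 14 alternatives.

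Over all 12 libraries, Ndufc1 ran from 116 to 137 normalised CPM in the 6 young and from 103 to 111 in the 6 old libraries, and Ndufa1 from 61.7 to 72.0 and from 56.0 to 60.7. These were the 2 members with all old below all young libraries (4.34% of all genes), and 0 had all old above all young (3.67% of all genes). The plasma cell marker sums separated the same libraries, at 31.4 to 101 normalised CPM in the 6 young and 201 to 1051 in the 6 old, the highest in old exercised replicate 6, and their part was not tested. The young libraries marked male stood at 116 and 137 for Ndufc1, and the old library marked female at 104.

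Complex II members stood higher in old than in young exercised mice, with no overlap for any of the 4, where 14.6% of all genes did not overlap upward, though none passed the test. The slow, fast oxidative and fast glycolytic fibre sums, given after the complexes, separated the same libraries. The erythroid, plasma cell, neuronal and macrophage sums did so too. The part of all these sums was not tested. Sdha stood at 860, 761 and 778 normalised CPM in young exercised and at 906, 999.8 and 983 in old exercised libraries, a difference of 0.27 ± 0.09 on the log2 scale (edgeR adjusted p = 0.0908). DESeq2 gave Sdha an adjusted p of 0.0344 and edgeR with plain library totals 0.0356, and over 14 alternatives the range was 0.0344 to 0.240. Sdhd stood at 192, 189 and 181 and then at 235, 231 and 232, which gave 0.31 ± 0.11 (edgeR adjusted p = 0.0970). Sdhb gave 0.24 ± 0.17 and Sdhc, the other membrane anchor, 0.20 ± 0.10. In the sedentary mice the 4 genes ran from -0.10 to 0.15 and overlapped between ages.

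In complex III all 9 nuclear members were positive for age in exercised mice, with a median of 0.16, and 5 did not overlap between groups, where 14.6% of all genes did not in this direction. They include Uqcrfs1, the Rieske iron-sulfur protein, at 0.17 ± 0.10, and Cyc1, cytochrome c1, at 0.21 ± 0.11. The core gene Uqcrc2 stood at 381, 353 and 343 normalised CPM in young and at 408, 456 and 426 in old exercised libraries, which gave 0.26 ± 0.12 (edgeR adjusted p = 0.192). Complex I had a median of 0.07 and complex IV of 0.12. Ndufv1, the NADH-binding subunit, stood at 278, 244 and 241 and then at 282, 328 and 327, which gave 0.30 ± 0.11 (edgeR adjusted p = 0.107). Cox8a had the value farthest from 0, at 0.67 ± 0.24 (edgeR adjusted p = 0.115). It stood at 15.8, 17.5 and 16.6 normalised CPM in young and at 21.3, 22.8 and 35.5 in old exercised libraries. The highest of these is old exercised replicate 6, which has an adipocyte signal. Ndufb2 had a value of the other sign, -0.25 ± 0.09 (edgeR adjusted p = 0.107).

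Over all members in this comparison, groups did not overlap upward for 20 (14.6% of all genes) and downward for 3 (15.1% of all genes). The nuclear median was 0.10, with 51 of 64 positive against 50.6% of all genes, and the median over all genes 0.00. An unadjusted p under 0.05 was reached by 9 members upward and 3 downward (12% and 12.7% of all genes). The slow fibre sums were 77.0, 126 and 65.1 normalised CPM in young exercised and 441, 670 and 245 in old exercised libraries, without overlap. The fast oxidative sums, 3045, 4321 and 3757 against 11647, 9814 and 6678, were also apart, and so were the fast glycolytic sums, with 160241 to 188676 in young and 132492 to 154615 in old exercised libraries. Sums of other cell types were apart in these libraries as well. Erythroid sums were 78.0 to 280 in young and 430 to 1193 in old exercised libraries, and plasma cell sums 31.4 to 101 and 209 to 1051. Neuronal sums were 3.89 to 5.22 and 14.2 to 18.2, and macrophage sums, lower in old, 80.1 to 120 and 66.9 to 72.5. The part of all these markers in the values of the members was not tested.

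**Figure D5:**
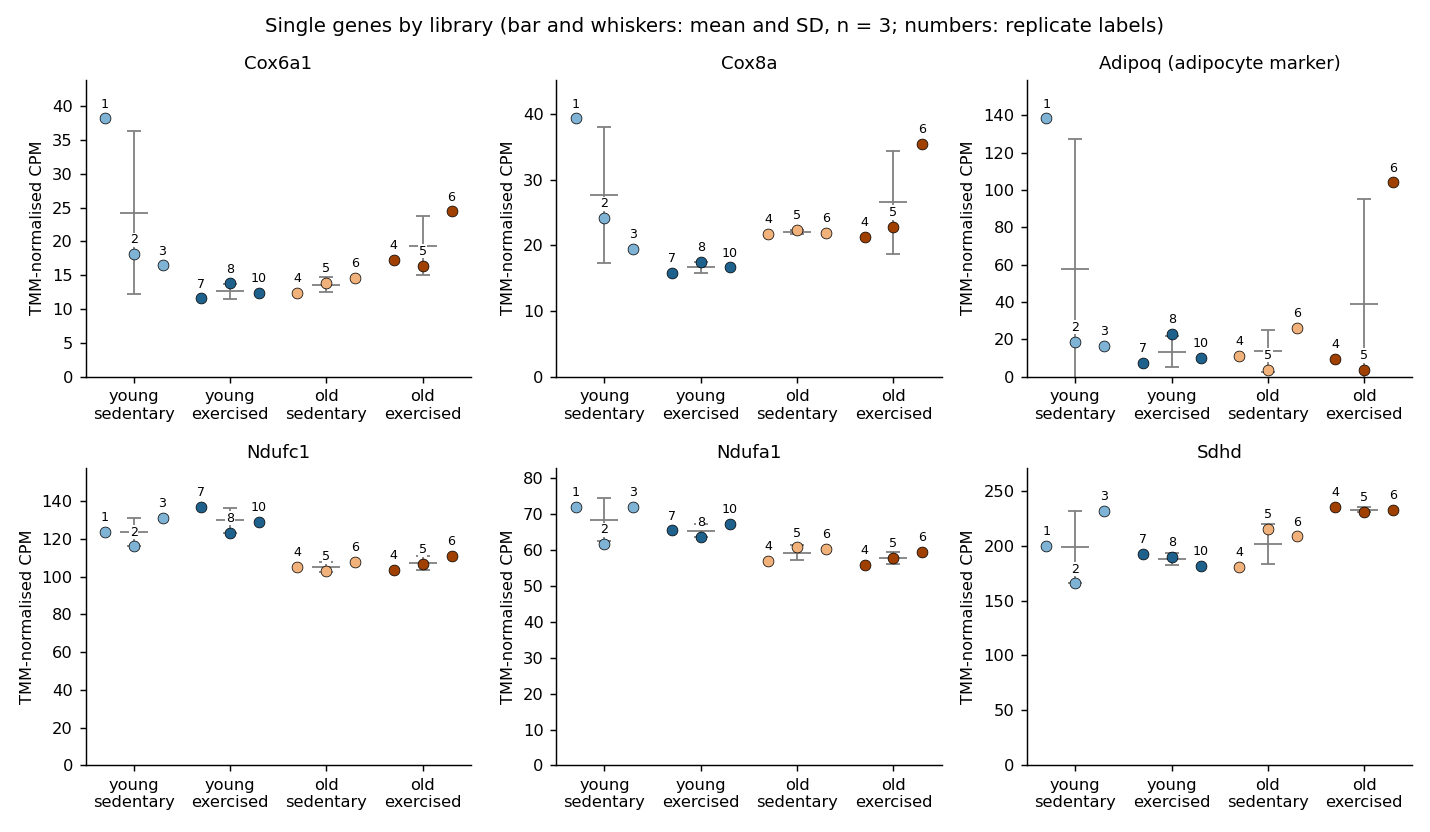
Normalised CPM of 5 members and of the adipocyte marker Adipoq by library; points are libraries with their replicate labels, and the bar and whiskers are mean and SD (n = 3), with a whisker of Adipoq that reaches below 0 ended at the axis. Cox6a1 and Cox8a are highest in young sedentary replicate 1 (38.2 and 39.3) and old exercised replicate 6 (24.4 and 35.5), the libraries with the highest Adipoq, and Ndufc1 and Ndufa1 lie lower in all old than in all young libraries.

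The mitochondrial members showed no call in any of the 5 comparisons. mt-Co1 stood at 31289, 30707 and 38763 normalised CPM in sedentary and 35864, 27478 and 28690 in exercised young mice, and at 29647, 37974 and 37234 in sedentary and 31460, 37397 and 33096 in exercised old mice. Its log2 fold changes were -0.13 ± 0.14 for exercise in young, -0.04 ± 0.14 for exercise in old, 0.06 ± 0.14 for age in sedentary and 0.15 ± 0.14 for age in exercised mice. The highest and lowest libraries lie in different groups, and every pair of groups compared overlaps. mt-Cytb, which shares no window with another gene, ran from 13402 to 17369 with a log2 fold change between -0.04 and 0.10 in the same comparisons. mt-Nd6 had the smallest p among the 7 countable genes, 0.28 ± 0.14 for age in sedentary mice (edgeR adjusted p = 0.217), and mt-Nd1, mt-Nd2, mt-Nd4 and mt-Nd5 gave 0.14, 0.03, 0.12 and 0.19 there.

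The ratio of mitochondrial to nuclear member counts sets both genomes side by side in each library. It was 6.17, 6.81 and 6.45 in sedentary and 7.20, 6.23 and 6.41 in exercised young mice, and 6.31, 7.28 and 7.29 in sedentary and 6.19, 6.86 and 5.96 in exercised old mice. As mean ± SD (n = 3), that is 6.47 ± 0.32, 6.61 ± 0.52, 6.96 ± 0.56 and 6.34 ± 0.47. All groups overlap. The log2 differences were 0.03 for exercise in young, -0.13 for exercise in old, 0.10 for age in sedentary and -0.06 for age in exercised mice, where the pooled SD between libraries of a group was 0.10. With 1 library left out in turn, these differences ran from -0.03 to 0.07, from -0.20 to -0.09, from 0.07 to 0.17 and from -0.12 to 0.0012 in that order.

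Complex IV holds several subunits with tissue isoforms, and the share of the broadly expressed isoform was highest in a few libraries. Cox6a1 made up 2.14% to 2.93% of Cox6a1 plus Cox6a2 in 9 of the 12 libraries, and 7.06%, 4.19% and 3.77% in young sedentary replicates 1 and 2 and old exercised replicate 6. These 3 are the libraries with signals of other tissues. Cox8a made up 15.04% of Cox8a plus Cox8b in young sedentary replicate 1 and 13.0% in old exercised replicate 6, against 5.87% to 10.3% in the other libraries. The summed level of 4 brown fat markers (Ucp1, Cidea, Elovl3 and Otop1) was 17.4 normalised CPM in young sedentary replicate 1. It was 6.09 in young sedentary replicate 2, 3.98 in old exercised replicate 6 and at most 2.42 in the others. Their part in the isoform levels was not tested. Cox7a2 made up 31.8% to 37.3% of Cox7a2 plus Cox7a1, the muscle isoform, and Ndufa4l2 1.38% ± 0.082 (SD, n = 3) of Ndufa4l2 plus Ndufa4 in sedentary and 1.20% ± 0.25 in exercised young mice, and 0.92% ± 0.13 in sedentary and 0.88% ± 0.17 in exercised old mice.

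Cox6a1, Cox8a and Ndufa4l2 had the widest spread over all libraries among nuclear members, with SD of 0.48, 0.40 and 0.33 on the log2 scale. The narrowest were the complex I subunits Ndufa12 and Ndufv3, with 0.060 and 0.061. Cox7a2l, a paralog of the Cox7a isoforms, ran from 76.3 to 90.6 normalised CPM, and its log2 fold changes lay between -0.06 and 0.04 in the 4 pairwise comparisons.

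Beyond the subunits, the genes that build, feed and regulate the chain had edgeR calls in the age comparisons and none for exercise or for the difference of responses. Assembly factors for complex I (15 tested), complex II (4), complex III (6) and complex IV (22) held no call for exercise at either age. Ttc19, a complex III assembly factor, was higher with age in sedentary mice at 0.29 ± 0.08 (edgeR adjusted p = 0.0391). In that comparison 10% of all genes passed. With age in exercised mice, Ndufaf5 fell by 0.48 ± 0.14, Sdhaf3 fell by 0.53 ± 0.11 and Coa7 fell by 0.50 ± 0.10, while Cox19 was higher by 0.41 ± 0.09. These names stand for assembly of complexes I, II, IV and IV in that order, with edgeR adjusted p of 0.0448, 0.0138, 0.0117 and 0.0178. The calls were 6.67% of complex I, 25% of complex II, 0% of complex III and 9.09% of complex IV assembly factors tested. Of all genes, 9.87% passed there. Of 14 alternatives, Coa7 passed in 14, Cox19 and Sdhaf3 in 11, Ndufaf5 in 6 and Ttc19 in 4. The calls of Sdhaf3 and Ndufaf5 were lost without the 3 libraries with signals of other tissues. Single libraries whose loss ended a call were young exercised replicates 8 and 10 and old exercised replicate 4 for Cox19, young exercised replicate 8 and old exercised replicate 6 for Sdhaf3, every one but old exercised replicate 4 for Ndufaf5, and every one but young sedentary replicate 3 for Ttc19.

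Genes of ubiquinone synthesis, among 17 tested electron carrier genes, gave 4 higher and 0 lower calls with age in exercised mice, where 4.6% and 5.27% of all genes passed in these directions. Coq8a, an atypical kinase of that pathway, stood at 444, 352 and 406 normalised CPM in young exercised and at 1031, 1262 and 1006 in old exercised libraries. The groups do not overlap, and the difference was 1.46 ± 0.32 on the log2 scale (edgeR adjusted p = 0.0195). In sedentary mice it ran from 388 to 987 in young and from 591 to 1075 in old libraries. Its paralog Coq8b, at 2.47, 2.35 and 2.495 normalised CPM against 4.79, 3.54 and 5.33, gave 0.90 ± 0.20 (edgeR adjusted p = 0.0162). Coq5 gave 0.35 ± 0.07 (edgeR adjusted p = 0.0104) and Coq3, like Coq5 a methyltransferase of the pathway, 0.33 ± 0.08 (edgeR adjusted p = 0.0249). Among all 17 electron carrier genes, 15 were positive with age in exercised mice, with a median of 0.33. Groups did not overlap upward for 8 of the 17 and downward for 0 (14.6% and 15.1% of all genes). Of 14 alternatives, Coq5 passed in 14, Coq8b in 10, Coq8a in 9 and Coq3 in 7. The call of Coq3 was lost without any 1 of the 6 libraries, that of Coq8a without young exercised replicate 7, 8 or 10 or old exercised replicate 5, and that of Coq8b without young exercised replicate 8 or 10, without old exercised replicate 6 or without the 3 libraries with signals of other tissues.

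The 16 nuclear genes of ATP synthase (complex V) and its inhibitor held 1 call: Atp5l, higher with age in exercised mice at 0.46 ± 0.13 (edgeR adjusted p = 0.0441). In that comparison 15 of the 16 were positive, against 50.6% of all genes, with a median of 0.15. Groups did not overlap upward for 8 and downward for 0 (14.6% and 15.1% of all genes). Of 14 genes of the citric acid cycle, Ogdh, a subunit of the oxoglutarate dehydrogenase complex, was higher there at 0.36 ± 0.10 (edgeR adjusted p = 0.0434). The median of these 14 was 0.14 there, with 11 positive, and groups did not overlap upward for 5 and downward for 0. Of 78 genes of the mitochondrial ribosome, 3 were higher (Mrpl41, Mrps5 and Mrpl14) and 2 lower (Mrps28 and Mrpl48) there, against 9.87% of all genes that passed. Each of the 7 calls in these lists was lost in at least 4 of 14 alternatives, among them at least 2 that left out 1 exercised library. The mitochondrial ATP synthase genes mt-Atp6 and mt-Atp8 held no call. The 15 genes of mitochondrial DNA expression held no call, and Tfam, which packages that DNA and starts its transcription, stayed between 45.3 and 53.5 normalised CPM in all libraries.

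The 12 regulators of mitochondrial biogenesis held 1 call, for age in exercised mice, where 9.87% of all genes passed. This was Ppargc1a, the coactivator PGC-1alpha, which was lower in old mice. It stood at 33.6, 28.6 and 42.8 normalised CPM in sedentary and 138, 74.3 and 89.0 in exercised young mice, and at 40.1, 37.1 and 43.2 in sedentary and 36.7, 53.6 and 47.2 in exercised old mice. All 3 young exercised libraries lie above the other 9. The age difference in exercised mice was -1.13 ± 0.23 (edgeR adjusted p = 0.0132), and without the 3 libraries with signals of other tissues -1.16 (edgeR adjusted p = 0.0621), the 1 of 14 alternatives that ended the call. Exercise in young mice gave 1.52 ± 0.23 (edgeR adjusted p = 0.0631) and in old mice 0.19 ± 0.23 (edgeR adjusted p = 0.867). The difference between the responses was -1.33 ± 0.32 (edgeR adjusted p = 0.126), and DESeq2 gave adjusted p of 6.7e-08 for exercise in young mice and 0.0057 for the difference. In the same young exercised libraries the summed nuclear level of the members, 12630 to 13987 normalised CPM, lay within the range of the young sedentary libraries. Esrra, Nrf1, Gabpa and Ppargc1b held no call, with edgeR adjusted p of at least 0.145 in every comparison.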

How the data were processed

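RNA of 12 quadriceps libraries was sequenced, and the authors deposited raw counts per gene. The submitters' processing notes list STAR 2.5.2b, Trimmomatic 0.36, featureCounts of Subread 1.5.2, DESeq2, bcl2fastq 2.20.0.422 and the build GRCm38. How multiply aligned reads were counted, like the annotation and the strand setting, is a detail not given in the sources used here. Counts were analysed with edgeR 4.0.16 in R 4.3.3: TMM scaling, filterByExpr (minimum count 10, minimum total 15, 15304 genes), a robust quasi-likelihood fit with 1 coefficient per group (8 residual degrees of freedom, common biological coefficient of variation 0.207) and Benjamini-Hochberg adjustment over all genes, with 0.05 as the threshold. The fit was tested on simulated counts. Errors of fold changes are approximate SE. A gene at 1 CPM has about 23 to 28 counts per library, and the spread between libraries adds to this counting error. No 2 libraries of a group were duplicates by a chi-square test of their counts.

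Alternatives were DESeq2 1.42.0, limma 3.58.1 (voom), plain library totals, library sizes without chromosome MT, no filter, a sex term, only the groups compared, a likelihood ratio test, a replicate block and leaving out each library. The fit of the replicate block covered the 6 old libraries, the only groups that share replicate numbers. A fit without the 3 libraries with signals of other tissues was added after seeing the data. Plain totals shift the median of all genes by -0.14 for exercise in young, 0.19 for the difference and -0.12 for age in sedentary mice. Members and lists were chosen with earlier results of these data known. Named are all mitochondrial members, members past the threshold, otherwise the 4 with the smallest p per comparison, core subunits, isoform pairs, extremes of level and spread, and for other lists up to 3 genes past the threshold and the main regulators; the other ribosome and Coq genes past the threshold were named after their values were seen. Window matching used GENCODE transcripts of GRCm38. mt-Rnr1 and mt-Rnr2 were not analysed here, and 1 member is counted but not reported on its own here.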

Additional observations from a re-analysis of the deposited data

Results flagged for a closer look

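Cox6a1 had exercise differences of opposite sign at the 2 ages: all 3 young exercised libraries lay below all 3 young sedentary, and all 3 old exercised libraries above all 3 old sedentary. Seen by age, it was lower in all old sedentary and higher in all old exercised libraries than in the young. The difference between the responses, the same for both views, was 1.45 on the log2 scale (edgeR adjusted p = 0.160), and 0.96 without young sedentary replicate 1 (edgeR adjusted p = 0.148). Without the 3 libraries with signals of other tissues it was 0.69, a value that rests on replicate 3 as the single young sedentary library.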

How the results depend on the processing

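The count of members past the threshold stayed at 0 for exercise in young and in old mice under every alternative. For the difference of responses it was 1 (Cox6a1, higher) with DESeq2 and 1 with the likelihood ratio test. For age in sedentary mice it was 2 with DESeq2 and 2 with plain library totals, all lower, and 0 to 4 in the fits that each omit a library (4 without young sedentary replicate 2, 1 without young sedentary replicate 3). For age in exercised mice it was 2 with DESeq2 (Ndufc1 lower, Sdha higher), 0 without the filter, 2 without the 3 libraries with signals of other tissues (Ndufc1 lower, Cox8a higher), and 0 to 1 in the fits that each omit a library; with plain totals the 1 call was Sdha and with only the groups compared Sdhd. The summed nuclear level for exercise in young mice was -0.08 on the log2 scale, -0.21 with plain totals and -0.23 with plain totals that leave out chromosome MT, and -0.16 to 0.02 with 1 library left out. With plain totals 35 members reached an unadjusted p under 0.05 downward for exercise in young mice, and the share of positive members fell from 16 to 1 of 75. The share of all genes at that threshold was not taken with plain totals. The median over all genes moved down as well, from -0.01 to -0.14, and that over nuclear members from -0.08 to -0.21. A replicate block of the old libraries called 0 members and 0 of all 14568 genes tested. The median over nuclear members for exercise in young mice was -0.08 also where TMM was kept on library sizes without chromosome MT. Same-numbered old libraries did not pair: their deviations correlated at -0.10, 0.04 and 0.08. With 3 libraries a group, log2 differences near the members' median SE, 0.10, were not detectable.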
